A study of Mus musculus with 4 samples.

Results

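The transcripts described here are 10 genes whose products mark the cells that line blood vessels, measured in cells of a mouse pancreatic tumour that had been sorted for a fibroblast protein. They were picked by name from the 22609 genes of the deposited count table: Vwf, Pecam1, Plvap, Egfl7, Robo4, Mmrn2, Ramp2, Cldn5, Eng and Emcn. All 10 were found under the lower-case names of the table (vwf, pecam1, plvap, egfl7, robo4, mmrn2, ramp2, cldn5, eng and emcn). They were picked with their CPM (reads scaled to the total of the library's column) in both sorted fractions already known, so their differences between the fractions are given as a description, without a test.

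The cells came from a spontaneous pancreatic ductal adenocarcinoma model in mice of C57BL/6 background. By the titles they were sorted as positive for the protease FAP, whose full name is fibroblast activation protein, with no purity given there. They were divided by the surface sialomucin CD34: 2 libraries held FAP+ CD34+ cells and 2 held FAP+ CD34- cells. The titles call the 2 libraries of a fraction biological replicates; the driver alleles of the tumour, the age of the mice and the number of mice behind a library remain not given in the sources used here, so p-values measure only the spread between these libraries. RNA was amplified from the poly(A) tail with MessageAmp, so reads are not independent molecules, and intervals below cover counting error only. Library totals were 10322354 and 13649942 reads in CD34+ replicates 1 and 2 and 13218444 and 14633561 reads in CD34- replicates 1 and 2.

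Endothelial cells form the inner wall of vessels, hold to each other through adherens and tight junctions, and carry receptors for growth factors, for guidance cues and for proteins of the clotting system. CD34 itself is a common surface marker of these cells and also lies on blood progenitors and on some fibroblasts. Fibroblasts and pericytes, the contractile cells that wrap small vessels, share part of the endothelial gene set; Eng in particular is known on stromal cells of several tissues. In bulk RNA, fewer cells of a type and less RNA per cell cannot be told apart.

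Fibroblast genes were abundant in all 4 libraries. Col1a2, encoding a chain of collagen I, lay between 1726 and 2884 RPKM (the authors' scale of reads per gene length and library size), and Pdgfra, a growth factor receptor of fibroblasts, between 20.0 and 37.4 RPKM. Cd34 was 143 and 293 CPM in CD34+ libraries and 18.3 and 23.9 CPM in CD34- libraries, and Fap was 79.0 and 39.8 CPM in CD34+ libraries and 142 and 136 CPM in CD34- libraries. Over all 13875 genes tested by edgeR's quasi-likelihood test, 0% rose and 0% fell at an adjusted p of 0.05. At an unadjusted p of 0.05, 9.81% lay higher and 6.65% lower (edgeR). Even Cd34, on which the fractions were sorted, did not pass (log2 fold change 3.37, adjusted p = 0.141 in edgeR and 1.04e-11 in DESeq2). A count of 0 passing in edgeR therefore does not show that genes were alike between the fractions. The CPM ranges of the fractions did not overlap for 23.4% of the tested genes in the higher and for 26.6% in the lower direction.

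Of the 10 endothelial markers, 8 were higher in both CD34+ libraries than in either CD34- library, 1 (Emcn) was lower in both, and 1 (Eng) overlapped. The share of all tested genes whose groups lay apart in the higher direction was 23.4%; since the markers were picked on this contrast, nothing is read from the difference. All 10 passed the filter on low counts. Their median log2 fold change, CD34+ over CD34-, was 2.43, beside -0.02 for all tested genes.

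**Figure D1:**
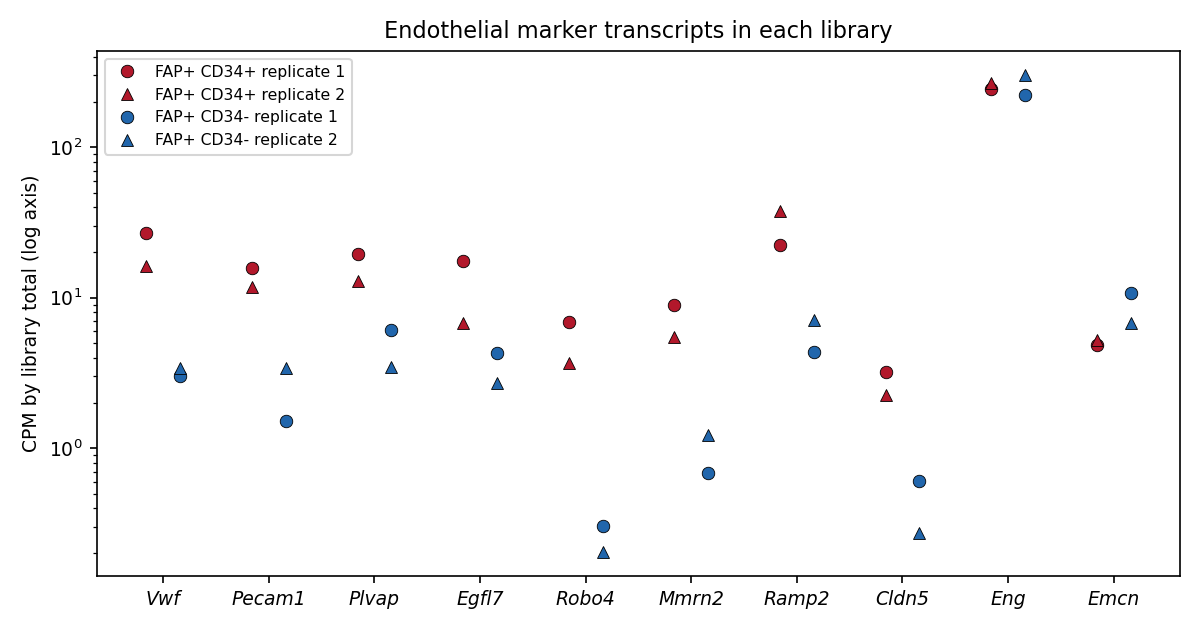
CPM by library total (log axis) of the 10 endothelial markers in the 2 FAP+ CD34+ libraries (left of each pair, red) and the 2 FAP+ CD34- libraries (right, blue); each symbol is 1 library. Both red symbols lie above both blue ones for 8 genes, the symbols of Eng mix near 250 CPM, and those of Emcn are in the opposite order.

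Among the junction proteins, Pecam1 encodes CD31, an adhesion molecule at contacts between endothelial cells that platelets and leukocytes also carry. Pecam1 was 15.8 and 11.7 CPM in CD34+ libraries, against 1.51 and 3.42 CPM in CD34- libraries. The lower CD34+ library was 3.43 times the higher CD34- library, and the group means were 13.8 ± 2.88 and 2.46 ± 1.35 CPM (SD, n = 2 each). Cldn5, which encodes the claudin that seals endothelial tight junctions, was scarce everywhere, at 3.20 and 2.27 CPM in CD34+ libraries, against 0.605 and 0.273 CPM in CD34- libraries. Those CD34- values rest on 8 and 4 reads, with exact 95% Poisson intervals of 0.261 to 1.19 and 0.0745 to 0.700 CPM.

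Of the secreted products, Vwf encodes von Willebrand factor, which is stored in endothelial granules and in platelets and tethers platelets to a damaged wall. Vwf was 27.1 and 16.3 CPM in CD34+ libraries, against 3.03 and 3.42 CPM in CD34- libraries, a ratio of means of 6.75. The CD34- libraries lay close together and the CD34+ libraries further apart. Mmrn2 encodes multimerin 2, a vessel wall glycoprotein that binds the endothelial lectin-like receptors CD93 and CLEC14A. Mmrn2 was 9.01 and 5.49 CPM in CD34+ libraries, against 0.681 and 1.23 CPM in CD34- libraries, and the ratio of means was 7.59. The lower CD34- value rests on 9 reads, with an exact 95% Poisson interval of 0.311 to 1.29 CPM.

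Egfl7 encodes a matrix protein that endothelial cells secrete. It was 17.5 and 6.81 CPM in CD34+ libraries, against 4.31 and 2.73 CPM in CD34- libraries. Its CD34+ libraries were the least alike of the 10 genes after scaling to their mean, and the lower of them was only 1.58 times the higher CD34- library. The log2 fold change of 1.82 became 0.95 without CD34+ replicate 1. An intron of Egfl7 holds the microRNA gene of miR-126; its row had 0 and 1 reads in CD34+ libraries and 0 and 0 reads in CD34- libraries, in a method that starts from poly(A) RNA.

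Of the surface receptors, Robo4, an endothelial member of the Roundabout guidance receptors, had the widest ratio of means of the 10, at 20.8. Robo4 was 6.88 and 3.66 CPM in CD34+ libraries (71 and 50 reads), against 0.303 and 0.205 CPM in CD34- libraries (4 and 3 reads). With so few reads the CD34- levels have exact 95% Poisson intervals of 0.0825 to 0.775 and 0.0423 to 0.599 CPM, and the size of the ratio is loosely set. Ramp2 encodes the accessory protein that turns the receptor Calcrl into a receptor for adrenomedullin. Ramp2 was 22.5 and 37.9 CPM in CD34+ libraries, against 4.39 and 7.11 CPM in CD34- libraries, and unlike the other 7 markers on the CD34+ side it was higher in CD34+ replicate 2 than in replicate 1.

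Plvap, which encodes the protein of the diaphragms that span endothelial fenestrae and caveolae, was 19.6 and 12.8 CPM in CD34+ libraries, against 6.13 and 3.49 CPM in CD34- libraries. Its ratio of means, 3.37, was the smallest of the 8, and the lower CD34+ library was 2.09 times the higher CD34- library.

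Eng and Emcn departed from the other 8. Eng encodes endoglin, a co-receptor for BMP9 and other ligands of the TGF-beta family, and was 244 and 268 CPM in CD34+ libraries, against 222 and 304 CPM in CD34- libraries. The CD34+ values lay inside the span of the CD34- values. The log2 fold change was -0.03. Of 12 alternative analyses it was above 0 in 2, at 0.30 when CD34- replicate 2 was left out and at 0.01 when CD34+ replicate 1 was, and below 0 in the other 10, down to -0.66 on the FPKM scale. Emcn encodes endomucin, a sialomucin of capillary and venous endothelium, and was 4.84 and 5.27 CPM in CD34+ libraries, against 10.7 and 6.83 CPM in CD34- libraries. Emcn was lower in CD34+ cells under all 12 alternatives, with log2 fold changes from -0.99 to -0.52.

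Eng dominated the summed reads of the markers. Eng made up 65.8% and 72.4% of the reads of the 10 genes in CD34+ libraries, against 87.5% and 91.4% in CD34- libraries. The sum over all 10 was 370.1 and 370.4 CPM in CD34+ libraries and 253 and 332 CPM in CD34- libraries, a ratio of means of 1.26. On the sums of the authors' FPKM the ratio was 0.985, so its direction depends on the scale. Without Eng the 9 others summed to 126 and 102 CPM in CD34+ libraries, against 31.6 and 28.7 CPM in CD34- libraries, a ratio of 3.79. A total over the whole list therefore mostly reports Eng, and the 8 markers on the CD34+ side, at 122 and 97.0 CPM against 21.0 and 21.9 CPM in CD34- libraries, are hidden in it.

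The scarcer genes of these libraries as a whole leaned to the CD34+ side, and the markers were read against genes of like level, in bands chosen after the values were seen. Of the 2739 tested genes with a mean of 1 to 5 CPM, 34.4% lay apart in the higher and 13.4% in the lower direction, with a median log2 fold change of 0.27. Robo4, Mmrn2 and Cldn5 fall in this band, with log2 fold changes of 4.36, 2.91 and 2.65. Of the 5193 tested genes with a mean of 5 to 30 CPM, 19.8% lay apart in the higher and 26.9% in the lower direction, with a median of -0.07. Vwf, Pecam1, Ramp2, Egfl7 and Plvap fall in that band at 2.77, 2.47, 2.39, 1.82 and 1.79, as does Emcn at -0.76. The lean of the band of 1 to 5 CPM has the direction of Robo4, Mmrn2 and Cldn5, and its part in their difference was not tested. In the band of Vwf, Pecam1, Ramp2, Egfl7 and Plvap, more genes lay apart in the lower than in the higher direction.

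Compared per gene length, Eng stood far above the other markers. It was first of the 10 in all 4 libraries, with RPKM of 38.2 and 54.6 in CD34+ libraries and 50.7 and 73.3 in CD34- libraries, which is between 152% and 196% of the RPKM of Pdgfra in the same library. Ramp2 had RPKM of 14.4 and 31.6 in CD34+ libraries and 4.11 and 7.03 in CD34- libraries. Robo4 was last in all 4 libraries, at 1.04 and 0.722 RPKM in CD34+ libraries and 0.0670 and 0.0479 RPKM in CD34- libraries. Emcn changed places most, ranking 6 and 5 of the 10 in CD34+ libraries but 2 and 3 in CD34- libraries. Pecam1, as the marker most often used for endothelium, stood at 13.4% and 7.19% of the RPKM of Pdgfra in CD34+ libraries, against 1.16% and 2.38% in CD34- libraries, and at no more than 0.155% of Col1a2 in any library. Since amplification began at the poly(A) tail, reads need not spread evenly over a transcript, and levels per length carry that limit.

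**Figure D2:**
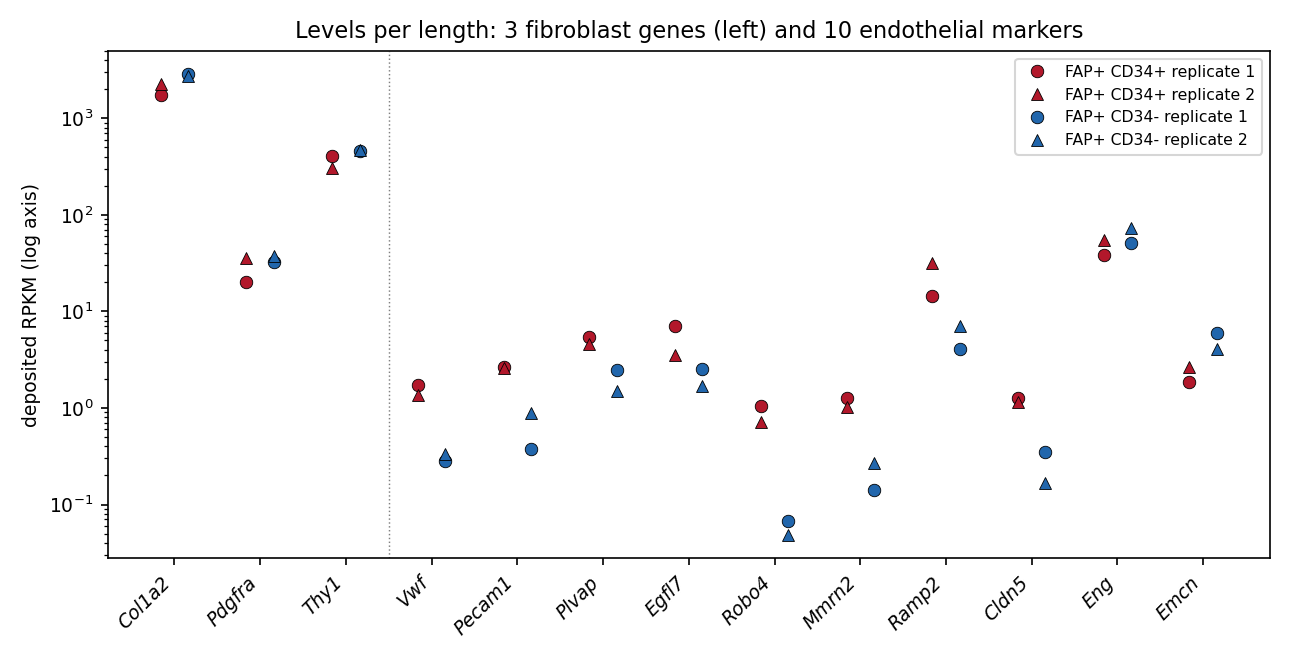
Deposited RPKM (log axis) of 3 fibroblast genes, left of the dotted line, and of the 10 endothelial markers; red symbols left of each pair are FAP+ CD34+ libraries, blue symbols right are FAP+ CD34- libraries, 1 symbol a library. Eng lies above Pdgfra in every library (152% to 196% of it), while Robo4 lies lowest.

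Reads of each marker were also set against those of Pecam1 in the same library, a ratio that does not depend on the library total and that was chosen after the values were seen. Vwf had 1.72 and 1.39 reads per Pecam1 read in CD34+ libraries and 2.00 and 1.00 in CD34- libraries. The ratio thus stayed within a narrow span although both genes differed several-fold between the fractions. The ratios of Plvap, Egfl7, Ramp2 and Cldn5 overlapped between the fractions as well, so 5 of 9 did. These genes and Pecam1 were all picked as markers on this contrast, which favours overlap, so nothing is read from that count. Mmrn2, at 0.571 and 0.469 in CD34+ libraries and 0.450 and 0.360 in CD34- libraries, lay apart by little, and Robo4 by more, at 0.436 and 0.312 against 0.200 and 0.0600.

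Eng and Emcn lay apart in the other direction. Eng had 15.4 and 22.9 reads per Pecam1 read in CD34+ libraries, against 146 and 88.9 in CD34- libraries, and Emcn had 0.307 and 0.450 against 7.05 and 2.00. The reads of Eng and of Emcn were therefore not in 1 fixed proportion to those of Pecam1 across the 4 libraries. Pecam1 had only 20 and 50 reads in the CD34- libraries, so ratios there are coarse.

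**Figure D3:**
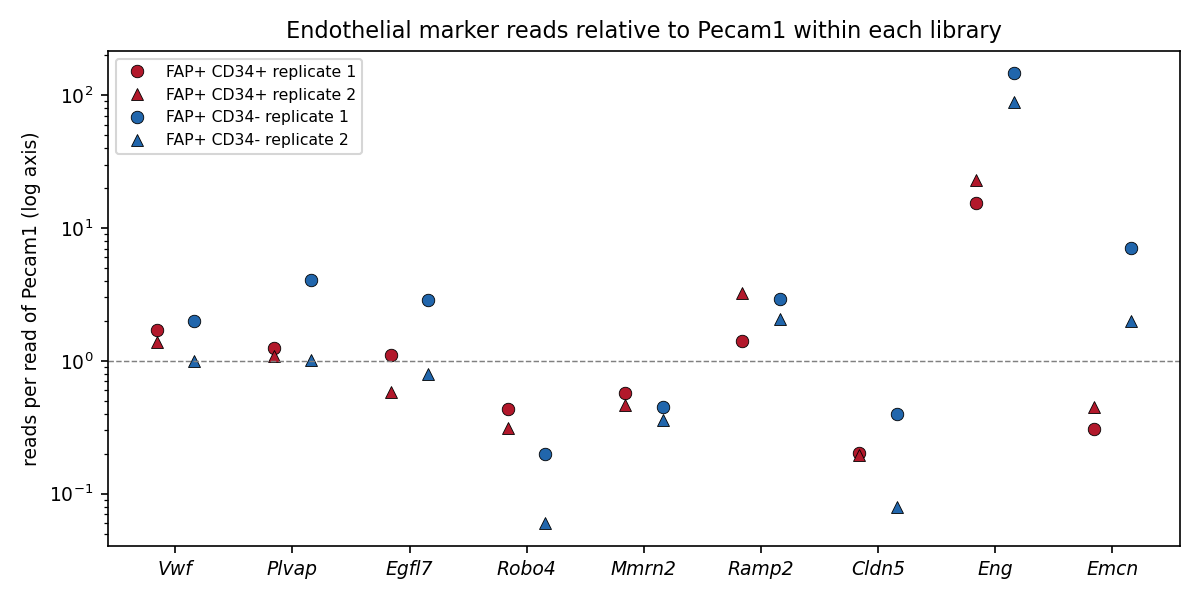
Reads of 9 endothelial markers per read of Pecam1 in the same library (log axis; the dashed line marks equal reads), FAP+ CD34+ libraries in red on the left of each pair and FAP+ CD34- libraries in blue on the right. Vwf, Plvap, Egfl7, Ramp2 and Cldn5 overlap between the fractions, whereas Eng and Emcn are higher in both CD34- libraries (146 and 88.9 for Eng).

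The start regions of the genes were compared for letters bound by ETS proteins, the transcription factor family with the best known role in endothelial genes. RefSeq promoter windows (250 bases before to 50 bases after the start, build GRCm38.p6, another build than the mm9 of the counts) were at hand for 5 of the 10 genes, Egfl7 with 3 starts. Those of 2 markers on the CD34+ side, Robo4 (chr9:37401722-37402021, plus strand) and Cldn5 (chr16:18776597-18776896, plus strand), are shown beside the 2 that departed, Eng (chr2:32646345-32646644, plus strand) and Emcn (chr3:137340828-137341127, plus strand), with the ETS core GGAA on either strand in capitals.
Robo4: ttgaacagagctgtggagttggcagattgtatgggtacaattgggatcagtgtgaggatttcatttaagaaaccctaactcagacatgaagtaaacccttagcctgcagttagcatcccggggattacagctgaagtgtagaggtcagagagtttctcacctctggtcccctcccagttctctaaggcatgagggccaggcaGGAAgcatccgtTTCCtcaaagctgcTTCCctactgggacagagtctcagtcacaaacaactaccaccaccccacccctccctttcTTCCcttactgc
Cldn5: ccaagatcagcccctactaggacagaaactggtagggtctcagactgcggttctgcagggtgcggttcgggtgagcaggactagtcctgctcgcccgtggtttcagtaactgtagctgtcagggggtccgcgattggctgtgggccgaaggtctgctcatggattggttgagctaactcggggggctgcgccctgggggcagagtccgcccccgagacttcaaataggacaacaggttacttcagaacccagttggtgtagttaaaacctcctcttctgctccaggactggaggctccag
Eng: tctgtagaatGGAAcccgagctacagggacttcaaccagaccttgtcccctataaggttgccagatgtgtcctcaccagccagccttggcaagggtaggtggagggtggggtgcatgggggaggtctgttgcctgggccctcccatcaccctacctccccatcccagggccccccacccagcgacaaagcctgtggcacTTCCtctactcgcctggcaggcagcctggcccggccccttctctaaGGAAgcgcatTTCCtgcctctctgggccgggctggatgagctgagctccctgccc
Emcn: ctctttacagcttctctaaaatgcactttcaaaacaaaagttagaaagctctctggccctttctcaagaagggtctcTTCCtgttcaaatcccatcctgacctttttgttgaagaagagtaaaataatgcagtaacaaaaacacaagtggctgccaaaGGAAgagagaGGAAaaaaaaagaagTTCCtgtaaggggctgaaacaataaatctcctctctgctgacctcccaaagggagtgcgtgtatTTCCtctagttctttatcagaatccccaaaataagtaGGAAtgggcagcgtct
The core GGAA was found 4 times in the Robo4 window, 0 times in that of Cldn5, 4 times in that of Eng and 6 times in that of Emcn. At least 1 GGAA lies in 96% of the 32817 promoter windows of this length, with a mean of 3.52 sites, so its presence sets no gene apart. The longer word AACAGGAA, which holds the core and is part of a composite site of forkhead and ETS factors, was found once in the Emcn window and once in the first Egfl7 window (chr2:26580833-26581132, plus strand), and in 2.65% of all windows on either strand. The words TATAAA (13.6% of windows) and AGATAA (11.2%) were in 0 of the 7 windows, and TGATAA (9.06%) was in that of Emcn and in another Egfl7 window. Each match describes letters only.

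A list of 30 other genes known across endothelium, none of them among the 10 markers, lay mostly on the CD34+ side where they were scarce and on both sides where they were not. None passed the test over all genes (0 of 28 tested rose and 0 fell, adjusted p of 0.05, edgeR's quasi-likelihood test; background 0%), and 13 lay higher and 2 lower at an unadjusted p of 0.05 (background 9.81% and 6.65%). DESeq2 called 4 higher and 1 lower, beside 1.68% and 0.948% of all its genes; edgeR without the filter on low counts called the same 5 genes (background 0.924% and 0.653%), and edgeR with a term for the replicate number called 0 (background 0.281% and 0.166%). Over all 30, 20 lay apart in the higher and 4 in the lower direction, beside 30.6% and 18.2% of the 20996 genes with a read.

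The 5 genes called by these alternatives were led by Nos3, which encodes the endothelial nitric oxide synthase. Nos3 was 6.59 and 1.83 CPM in CD34+ libraries (68 and 25 reads), against 0.303 and 0.0683 CPM in CD34- libraries (4 and 1 reads), with an adjusted p of 0.177 in edgeR and 0.00168 in DESeq2. She, encoding an SH2 adaptor protein, had 38 and 37 reads in CD34+ libraries and 1 and 4 reads in CD34- libraries (adjusted p = 0.171 in edgeR, 0.00502 in DESeq2). Eltd1, an adhesion G protein-coupled receptor now named Adgrl4, had 36 and 52 reads against 7 and 1 reads in CD34- libraries (adjusted p = 0.177 and 0.00732). With 1 read in a library the fitted folds of these genes depend on the prior count, and they were the widest of the list, at log2 4.49 (SE 0.98), 4.10 (SE 0.74) and 3.64 (SE 0.80). Procr, encoding the endothelial protein C receptor, was abundant, at 835 and 246 CPM in CD34+ libraries, against 55.9 and 142 CPM in the CD34- fraction (a log2 difference of 2.45, SE 0.73, adjusted p = 0.230 in edgeR and 0.00171 in DESeq2). In the other direction lay Apold1, an early response gene of endothelium, at 22.1 and 27.8 CPM in CD34+ libraries, against 47.5 and 83.3 CPM in CD34- libraries (-1.39, SE 0.36, adjusted p = 0.207 and 0.0244).

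**Figure D4:**
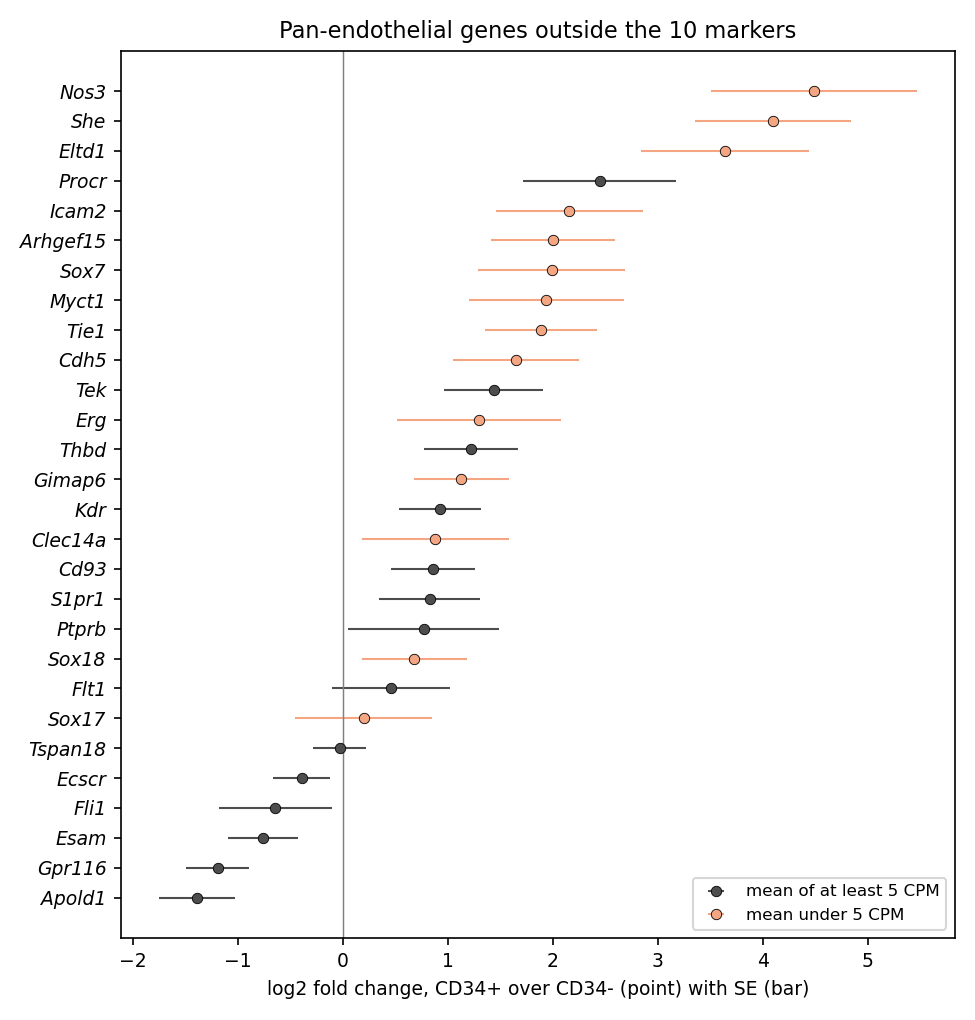
Log2 fold changes, CD34+ over CD34- (edgeR), of the 28 tested pan-endothelial genes outside the 10 markers, ordered by value. Bars are the SE, derived from the fold change and the F statistic of the test. Colour marks genes with a mean of at least 5 CPM or under it. All 14 tested genes under 5 CPM lie right of 0, whereas 6 of those from 5 CPM lie left of it.

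The level split was sharp in this list too. Of the 16 genes under a mean of 5 CPM, 14 lay apart in the higher and 0 in the lower direction, beside 42.4% and 5.13% of all genes with a read in that range. They include Cdh5, encoding VE-cadherin, the adherens junction protein of endothelium, at 4.17 and 4.98 CPM in CD34+ libraries, against 0.832 and 2.05 CPM in the CD34- fraction (a log2 difference of 1.65, SE 0.60, adjusted p = 0.275, edgeR), and the angiopoietin receptor family gene Tie1 at 5.91 and 3.88 against 1.06 and 1.57 CPM (1.89, SE 0.53, adjusted p = 0.221). Also apart were Icam2, Sox7, Sox18, Erg, Tal1, Myct1, Cyyr1, Arhgef15 and Gimap6, while Clec14a and Sox17 overlapped. In the band of 1 to 5 CPM used above, the list has 12 tested genes, with a median log2 fold change of 1.77 beside 0.27 for all. Of these 12, 10 lay apart in the higher and 0 in the lower direction (background 34.4% and 13.4%). Without the filter the median log2 fold change of the 16 was 1.87, beside 1.35 for all genes with a read under 5 CPM. The part of that general lean in the list's difference was not tested.

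Of the 14 genes from 5 CPM, 6 lay apart in the higher and 4 in the lower direction, beside 18.9% and 31.2% of all genes at that level. Without the filter the median log2 fold change of the 14 was 0.51, beside -0.18 for all genes at that level. Higher were Procr, Thbd, Kdr, Tek, Cd93 and S1pr1. Thbd, which encodes the thrombin receptor thrombomodulin, was 309 and 366 CPM in CD34+ libraries and 89.6 and 199 CPM in CD34- libraries (1.22, SE 0.45, adjusted p = 0.276, edgeR). Kdr, the main VEGF receptor of endothelium, was 12.9 and 8.65 CPM in CD34+ libraries and 5.60 and 5.81 CPM in CD34- libraries (0.93, SE 0.39, adjusted p = 0.310, edgeR), and Tek, the angiopoietin receptor Tie2, 6.59 and 10.4 against 2.57 and 3.69 CPM (1.44, SE 0.47, adjusted p = 0.243). Lower were Apold1, Ecscr, the junction gene Esam at 8.91 and 9.30 CPM in CD34+ libraries against 13.5 and 17.5 CPM in CD34- libraries, and Gpr116, a receptor gene now named Adgrf5, at 9.78 and 9.82 CPM against 27.2 and 18.5 CPM (-1.19, SE 0.30, adjusted p = 0.201, edgeR). Flt1, Ptprb, Fli1 and Tspan18 overlapped. Emcn also lay on the CD34- side. The 4 lower genes of the list are near the 31.2% of all genes at that level, so no group is read from them.

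Genes of the proteins that the markers act with lay on both sides, 11 of 31 apart in the higher and 6 in the lower direction, near the 30.6% and 18.2% of all genes with a read. Of the 27 tested 0 passed in either direction (adjusted p of 0.05, edgeR; background 0%), with 4 higher and 3 lower at an unadjusted p of 0.05 (background 9.81% and 6.65%) and 0 called by DESeq2, and the median log2 fold change was 0.39 beside -0.02 for all tested genes. Calcrl, the receptor that Ramp2 completes, lay the other way from Ramp2, at 5.13 and 6.30 CPM in CD34+ libraries, against 13.7 and 7.72 CPM in CD34- libraries (-0.87, SE 0.41, adjusted p = 0.345), and its ligand gene Adm was 40.6 and 36.4 against 33.7 and 26.4 CPM (0.39, SE 0.24, adjusted p = 0.458). Ramp1, which pairs Calcrl with another peptide, was 38.0 and 20.4 CPM in CD34+ libraries and 16.9 and 16.3 CPM in CD34- libraries. Unc5b, a partner of Robo4, was 216 and 122 CPM in CD34+ libraries, against 356 and 316 CPM in CD34- libraries (-0.97, SE 0.35, adjusted p = 0.275), and the guidance ligand genes Slit2 and Slit3 were 151 and 116 against 106 and 100.2 CPM and 775 and 647 against 536 and 354 CPM.

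For Eng, the receptor partner Acvrl1 (ALK1) was higher in both CD34+ libraries, at 82.8 and 95.4 CPM against 35.9 and 49.2 CPM in CD34- libraries (1.07, SE 0.28, adjusted p = 0.210, edgeR). Tgfbr2 was 296 and 651 CPM in CD34+ libraries and 387 and 759 CPM in CD34- libraries, following the replicate number more than the fraction. The BMP target genes Smad6 and Id1 overlapped between the fractions, with log2 fold changes of 0.13 and -0.25. Around Cldn5, the scaffold gene Tjp1 was 22.9 and 39.4 CPM in CD34+ libraries, against 50.9 and 58.7 CPM in CD34- libraries. Cd93, which binds multimerin 2, was 19.7 and 10.9 CPM in CD34+ libraries and 9.91 and 7.24 CPM in CD34- libraries (0.86, SE 0.40, adjusted p = 0.344). Of the caveola genes, Sdpr was 28.8 and 72.1 against 24.6 and 17.0 CPM, Cav1 overlapped and Cav2 was 3.29 and 6.37 against 12.3 and 7.04 CPM. Notch4 was 9.49 and 13.2 CPM in CD34+ libraries and 33.7 and 16.1 CPM in CD34- libraries, while Notch1, Vegfc and Fgf2 overlapped; Vegfa, the main endothelial growth factor, was 445 and 232 against 509 and 842 CPM.

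Genes of endothelial subtypes lay on both sides, and 0 passed in any list (adjusted p of 0.05, edgeR). Their counts of genes apart stand beside 30.6% higher and 18.2% lower for all genes with a read, 42.4% and 5.13% for those under 5 CPM, and 18.9% and 31.2% for those from 5 CPM, and so do the counts for other cell types further on. With 8 to 10 genes a list, a count near those shares is no result about the list. In the list of venous and activated endothelium 4 of 10 lay apart in the higher and 2 in the lower direction, with a median of 0.85. Selp, encoding P-selectin, was 26.2 and 22.9 CPM in CD34+ libraries, against 3.25 and 3.21 CPM in CD34- libraries (2.94, SE 0.31, adjusted p = 0.134 in edgeR and 3.33e-08 in DESeq2, and 0.0353 in edgeR with a replicate block). Darc, now Ackr1, the chemokine-binding receptor of venules, was 27.5 and 10.1 CPM against 1.66 and 1.64 CPM (3.52, SE 0.59, adjusted p = 0.166 and 8.26e-07). Aplnr, the apelin receptor gene, lay the other way at 7.75 and 9.52 CPM in CD34+ libraries and 21.0 and 25.2 CPM in CD34- libraries (-1.41, SE 0.31, adjusted p = 0.177 and 0.0238). Lrg1, encoding a glycoprotein of activated vessels, was 27.9 and 37.3 CPM in CD34+ libraries and 14.4 and 3.62 CPM in CD34- libraries (1.91, adjusted p = 0.230, edgeR), and Icam1, an adhesion receptor gene that fibroblasts also use, was higher in both CD34+ libraries too. Vcam1, the most abundant member, overlapped at 536 and 376 CPM in CD34+ libraries and 114 and 382 CPM in CD34- libraries, as did Sele, Nr2f2 and Ephb4.

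Of the arterial genes 4 of 10 lay apart in the higher and 4 in the lower direction, with a median of -0.38 over 8 tested. The 4 higher ones all had a mean under 5 CPM, where 42.4% of genes lay apart in that direction, and the 4 lower ones were Gja4, Hey1, Unc5b and Efnb2. Unc5b made up most of the arterial sum in every library. Gja4, encoding the gap junction protein connexin 37, was 2.23 and 3.37 CPM in CD34+ libraries and 10.7 and 15.99 CPM in CD34- libraries (-2.24, SE 0.45, adjusted p = 0.173 in edgeR and 0.00152 in DESeq2), and Hey1, a Notch target, 2.62 and 3.22 against 29.4 and 8.54 CPM (-2.64, SE 0.61, adjusted p = 0.178 and 4.43e-04). Of 9 genes of sprouting tip cells 2 lay apart in the higher and 4 in the lower direction (median -0.05). Apln, the ligand gene of Aplnr, was 3.88 and 9.45 CPM against 31.9 and 15.4 CPM. The scarce genes Angpt2 and Dll4, named after their values were seen, lay on opposite sides. Angpt2 was 0.969 and 0.733 against 6.58 and 5.13 CPM, and Dll4 was 3.39 and 1.76 against 1.51 and 0.41 CPM. Esm1, Nid2 and Pgf overlapped. Cxcr4, Kdr and Unc5b had log2 fold changes of -1.19, 0.93 and -0.97. Of 9 capillary genes found, 4 lay apart in the higher and 0 in the lower direction (median 0.32 over 8 tested), all under 5 CPM (background there 42.4% and 5.13%), while Fabp4, Fabp5 and Aqp1 overlapped. The capillary sum lay the other way, at 116 and 130 CPM in CD34+ libraries and 141 and 197 CPM in CD34- libraries. The lymphatic list held 4 of 10 apart in the higher and 0 in the lower direction (median 0.85 over 5 tested), but Pdpn, a fibroblast gene as well, made up most of its sum, at 741 and 500.5 CPM in CD34+ libraries and 184 and 374 CPM in CD34- libraries, and Sema3d overlapped. Prox1, which defines lymphatic identity, had 6 and 4 reads in CD34+ libraries and 7 and 0 reads in CD34- libraries. Flt4, the VEGFC receptor gene, had 61 and 39 reads in CD34+ libraries and 60 and 97 reads in CD34- libraries, and Lyve1, a hyaluronan receptor gene, 16 and 23 reads in CD34+ libraries and 95 and 21 reads in CD34- libraries. All 3 overlapped. Ccl21a had 0 reads in all 4 libraries but was 0.448 and 1.37 FPKM in CD34+ libraries and 0.277 and 4.81 FPKM in CD34- libraries in the authors' FPKM.

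**Figure D5:**
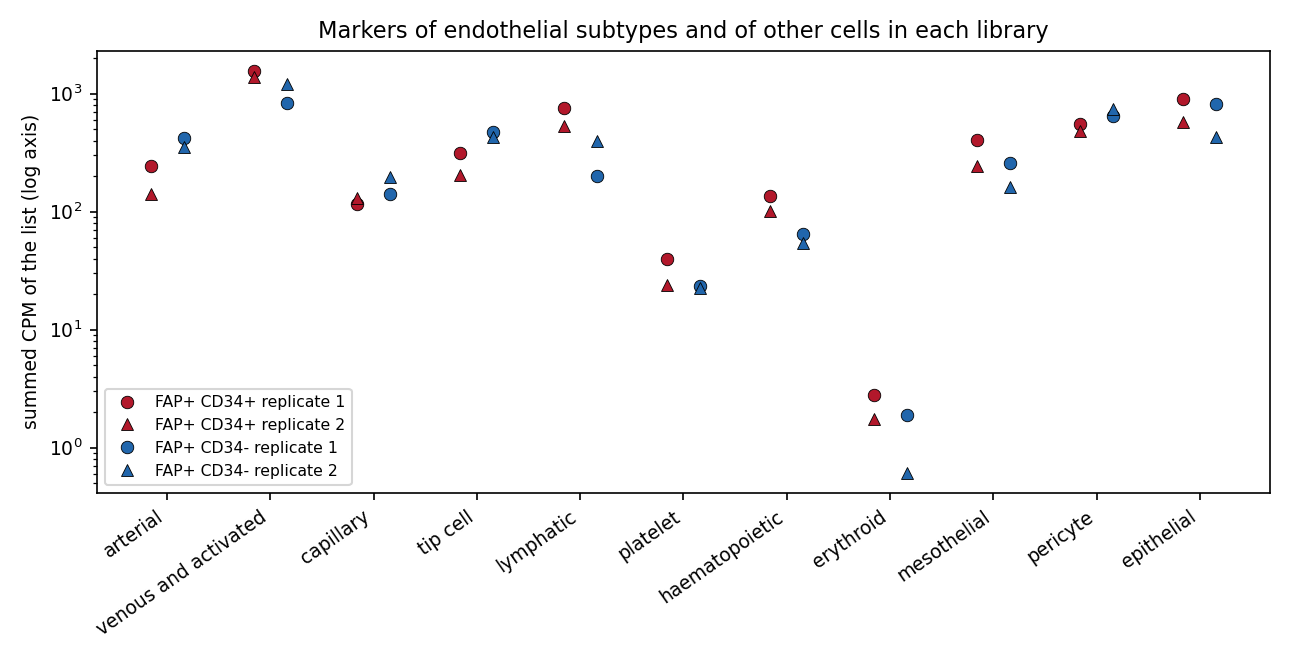
CPM summed over each list of marker genes (log axis) for 5 endothelial subtypes and 6 other cell types; red symbols left of each pair are FAP+ CD34+ libraries, blue symbols right are FAP+ CD34- libraries, 1 symbol a library. The haematopoietic sum (135 and 100.4 CPM in CD34+ libraries) and the venous and activated, lymphatic and platelet sums lie higher in both CD34+ libraries, the platelet sum by little. The lymphatic sum is mostly Pdpn, and the venous and activated sum is mostly Vcam1, Icam1, Vcan and Nr2f2. The pericyte, tip cell and capillary sums and the arterial sum, which is mostly Unc5b, lie lower in both. Erythroid, mesothelial and epithelial sums overlap.

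Markers of other cells that carry some of these transcripts were read beside them. For platelets, which hold Vwf, Pecam1 and Selp products, 2 of 10 genes lay apart in the higher direction, the summed level was 40.0 and 24.1 CPM in CD34+ libraries and 23.5 and 22.6 CPM in CD34- libraries, its most abundant gene Gp1bb overlapped, and the defining genes Pf4, Ppbp, Gp9 and Gp6 had 15 reads or fewer in every library. Itga2b, the platelet integrin gene, was 15.4 and 9.82 CPM against 5.83 and 4.10 CPM (1.37, SE 0.41, adjusted p = 0.230, edgeR). For blood cells 6 of 10 lay apart in the higher and 0 in the lower direction (42.4% and 5.13% of all genes with a read under 5 CPM, where most of the list lies), Csf1r overlapped, and the summed level was 135 and 100.4 CPM in CD34+ libraries and 64.5 and 53.8 CPM in CD34- libraries. Lyz2, a myeloid lysozyme gene, was 70.9 and 76.1 CPM in CD34+ libraries and 37.9 and 41.8 CPM in CD34- libraries, Ptprc (CD45) had 57 and 51 against 32 and 24 reads, and Cd3e of T cells had 196 reads in CD34+ replicate 1, 4 in CD34+ replicate 2 and 0 and 0 in CD34- libraries. In the erythroid list 2 of 8 lay apart in the higher direction, near the share of all genes. All 4 globin genes of that list had 0 reads in all 4 libraries of the count table, where the list summed to at most 2.81 CPM, but they were not all at 0 in the deposited FPKM. There Hba-a2 was 51.6 and 23.0 FPKM in CD34+ libraries, against 14.9 and 8.54 FPKM in CD34- libraries, and Hbb-b2 was 8.62 and 6.85 FPKM in CD34+ libraries, against 3.18 and 0.513 FPKM in CD34- libraries. Both globins lay in the direction of the 8 markers on that scale. Globin genes have near-identical copies, so a 0 in the counts does not show that their RNA was absent, and the part of erythroid RNA in the markers' difference was not tested.

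For mesothelium 5 of 8 genes lay apart in the higher direction, beside 30.6% of all genes with a read and 42.4% of those under 5 CPM. They were Wt1, Cldn15 and, under 5 CPM, Upk3b, Lrrn4 and Gpm6a. Krt19, Upk1b and Msln overlapped, and Msln was 49.8 and 13.9 CPM against 75.0 and 11.6 CPM (-0.37). The sum overlapped, at 409 and 245 CPM in CD34+ libraries and 257 and 162 CPM in CD34- libraries. Wt1 was 206 and 120.0 against 57.7 and 79.3 CPM (1.26, SE 0.37, adjusted p = 0.227, edgeR). Of the pericyte genes 1 of 10 lay apart in the higher and 5 in the lower direction (18.9% and 31.2% of all genes from 5 CPM), with sums of 553 and 485 CPM in CD34+ libraries and 642 and 747 CPM in CD34- libraries. Rgs5, a pericyte regulator of G protein signalling, was 2.13 and 7.33 CPM in CD34+ libraries and 45.5 and 89.7 CPM in CD34- libraries (-3.82, SE 0.65, adjusted p = 0.169 in edgeR and 1.97e-09 in DESeq2), and Mcam (CD146), which endothelial cells carry too, 27.9 and 16.5 against 103 and 103 CPM (-2.20, SE 0.33, adjusted p = 0.159 and 3.12e-06). Both passed in edgeR with a replicate block (adjusted p = 0.0150 and 0.0458), as did Anpep, an aminopeptidase gene of stromal cells on the CD34+ side (2.17). Ndufa4l2 had a log2 fold change of -1.71, and Cspg4, the most abundant of the list, overlapped at 243 and 51.9 CPM in CD34+ libraries and 139 and 196 CPM in CD34- libraries. The pericyte genes Kcnj8, Abcc9 and Notch3 overlapped too, with log2 fold changes of 0.57, 0.24 and 0.4. Epithelial sums were 908 and 579 CPM in CD34+ libraries and 822 and 429 CPM in CD34- libraries, with 2 of 9 genes apart in the higher direction, Muc1 and Cldn7, while Cldn4, Epcam and the most abundant gene Krt8 overlapped. The fibroblast list summed to 40080 and 40030 CPM in CD34+ libraries and 41210 and 37470 CPM in CD34- libraries, with 1 of 10 genes apart in the higher and 4, Pdgfrb among them, in the lower direction, while Dcn overlapped. Blood cell sums thus lay in the direction of the 8 markers. Platelet sums lay apart by little, 24.1 CPM in the lower CD34+ against 23.5 CPM in the higher CD34- library. Their most abundant gene Gp1bb overlapped, so no direction is read from them. Pericyte sums lay in that of Emcn, though not all pericyte genes did. The part of these cells in either difference was not tested.

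The genes whose pattern over the 4 libraries was most like the mean of the 10 markers were sought among the 10515 other genes from 5 CPM, by the root mean square difference of log2(CPM + 0.5) centred on each gene's mean. The mean profile of the markers stood at 1.03 and 0.64 in CD34+ libraries and at -0.84 and -0.83 in CD34- libraries. The nearest were Csdc2 (difference 0.0628), an RNA-binding protein gene at 16.8 and 14.0 CPM in CD34+ libraries and 4.77 and 4.65 CPM in CD34- libraries, then Aw551984, Afmid, A430110n23rik, Dedd2, Sbsn, Tulp1, Npy1r, Card10 and Ly6e (0.0906 to 0.157). Ly6e, a surface antigen gene, was the most abundant, at 514.5 and 344 against 162 and 158 CPM, and Npy1r, a neuropeptide Y receptor gene, was 24.4 and 17.3 against 4.69 and 6.22 CPM. Of these 10 genes 0 were on any of the lists above. The mean profile blended Eng (log2 fold change -0.03) and Emcn (-0.76) with the markers on the CD34+ side. The measure also weighs the size of a difference, which sets back genes with wide ones, such as Selp (2.94) and Darc (3.52). Genes under 5 CPM were not ranked. The 0 therefore does not show whether endothelial genes share the direction of the markers.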

How the data were processed

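RNA was sequenced from 4 libraries, 2 of FAP+ CD34+ and 2 of FAP+ CD34- cells, grouped by their titles. Build mm9 and the tools HTSeq, edgeR, TopHat2 and Bowtie2 are named in the submitters' processing notes; versions, annotation and strand setting remain not given in the sources used here, so reads of overlapping genes cannot be told apart. The authors deposited whole-number counts per gene, RPKM for the same genes, and FPKM that their table name calls bias-adjusted. Every table held 14 more per-sample columns, which matched none of these samples and were left out, and a table of estimated fragments was not used.

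CPM are counts over the library total. Counts were tested with edgeR 4.0.16 (R 4.3.3, glmQLFTest, TMM, filterByExpr, group only), two-sided, adjusted over all 13875 tested genes by Benjamini-Hochberg at 0.05. Log2 fold changes come from this fit, and the SE was derived as their absolute value over the square root of the F statistic. The fit was tested on simulated data. That simulation gave all genes the same spread and changed only well-covered genes, so it does not show the power of the fit on these libraries. With 2 libraries a group an exact permutation test cannot go below p = 0.333, so none was run. P-values measure only the spread between these libraries.

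Named were the 10 markers, Fap, Cd34, pan-endothelial and partner genes from 5 CPM, up to 4 genes of smallest p and the most abundant per other list, and the 10 of nearest profile; scarcer ones were named after their values were seen, and 1 partner gene is not reported here. Members and lists were chosen with earlier results of these data known. Alternatives were DESeq2 1.42.0, limma 3.58.1 on log2 of RPKM or FPKM with a pseudocount of 1, other scalings and filters, a replicate block, and each library left out in turn.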

Additional observations from a re-analysis of the deposited data

How the results depend on the processing

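The sides of 9 of the 10 markers, all but Eng, were kept under the 12 alternative fits. Their median log2 fold change of 2.43 was 0.89 on log2(RPKM + 1) and 0.87 on log2(FPKM + 1), scales on which low genes shrink and the median of all genes was -0.31 (0.24 in DESeq2, 0.17 without a filter), and lay between 2.10 and 2.55 when 1 library was left out; Pecam1, at 2.47, was 1.92 without CD34- replicate 1 and 3.26 without CD34- replicate 2. The ratio of the summed CPM, 1.26, was 0.985 on FPKM, 1.11 to 1.46 with 1 library left out, and, in alternatives added after seeing the data, 3.79 without Eng and 5.10 without Eng and Emcn. The median of the 28 other pan-endothelial genes, 1.03, was 1.13 in DESeq2, 0.95 from 1 CPM in 2 libraries, 0.25 and 0.21 on RPKM and FPKM, and 1.00 to 1.24 with 1 library left out; 0 of them were called, against 5 in DESeq2 and 5 in edgeR without a filter.

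Over all genes edgeR called 0 higher and 0 lower, DESeq2 352 and 199, edgeR without a filter 194 and 137, limma on RPKM 5 and 7, and edgeR with library size scaling or with a filter of 1 CPM in 2 libraries 2 and 0 each; with any 1 library left out 0 and 0 were called, a fit in which a group's lone library takes its spread from the other group. The cause of these differences was not tested. With a replicate block edgeR called 39 and 23, of which 0 were among the other pan-endothelial genes, and the median of the markers was 2.47. No label says that the number marks shared mice; deviations of same-numbered libraries from their group means correlated at 0.241 over 13875 genes. Depth limits genes with few reads, among them Robo4, Cldn5, Nos3, She and Eltd1, with 1 to 8 reads in CD34- libraries.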
